A study of Rattus norvegicus with 14 samples.

Results

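Succinate dehydrogenase, the cytochrome bc1 complex, cytochrome c oxidase and ATP synthase, known as complexes II, III, IV and V of the inner mitochondrial membrane, were followed in the rat soleus after its tendon had been cut. The genes were Sdha, Sdhb, Sdhc, Sdhd, Cyc1, Cycs and every gene whose symbol begins with Uqcr, Cox4, Cox5, Cox6, Cox7, Cox8 or Atp5. Of 14217 genes with a probe set of their own, 45 met this rule: 4 of complex II, 8 of complex III, 17 of complex IV and 16 of complex V. A filter on dim signals left 43 of the 45 among 11056 genes tested. The members that did not pass it were Cox6b2, above the filter on 2 arrays and at the floor in all 4 controls, and Cox7b2, above it on 0 arrays. Left out were 7 probe sets annotated with a listed symbol beside other genes, 2 of them with Cycs, so Cycs is not reported and the list does not hold every subunit. The rule also holds Cox6c-ps1, which is a pseudogene, Cox7a2l, an assembly factor of supercomplexes, and Atp5if1, an inhibitor of ATP synthase, and these were kept.

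Whole soleus of male Sprague Dawley rats was hybridised to 14 Affymetrix arrays, 1 per muscle, from 12 rats. The 6 short-term muscles had been tenotomized for 1 week (2 arrays), 2 weeks (2 arrays), 3 weeks (1 array) or 4 weeks (1 array), and the 4 long-term muscles for 6 weeks (2 arrays), 16 weeks (1 array) or 22 weeks (1 array). The 4 controls were left muscles of rats 61 and 62 and of 2 other rats, and every tenotomized muscle was a right one, so side and tenotomy cannot be told apart. Rats 61 and 62 gave both a control and a 6-week array. Short-term and control arrays came from different rats whose ages are not in the labels, so cohort and tenotomy cannot be told apart in comparisons with short-term muscle. Tenotomy removes the load from a muscle whose nerve is left in place, and a bulk array of it cannot tell fewer cells of a type apart from less RNA per cell. All 11 genes of a list of slow and general muscle genes were detected, and 0 of 11 changed in short-term muscle by limma. Their summed signals were 78919 to 102234 in controls and 74320 to 116437 in short-term muscle. These sums are high, and above a mean log2 signal of 12.5 only 6.78% of genes outside the members were lower. The 0 of 11 is therefore no measure of muscle content, which was not tested.

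As background, complex II passes electrons from succinate to ubiquinone and is also an enzyme of the citric acid cycle. Complex III moves electrons from ubiquinol to cytochrome c, complex IV moves them from cytochrome c to oxygen, and both III and IV pump protons. Complex V uses the proton gradient to make ATP through a rotating ring and central stalk, held against a fixed peripheral stalk. The soleus is a slow, oxidative muscle rich in these complexes, and some complex IV subunits have a heart and muscle isoform beside a widely expressed one.

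In muscle tenotomized for 1 to 4 weeks, 25 of 43 members were lower than in controls and 0 were higher, at an adjusted p under 0.05 in limma. Of all genes tested, 26.5% were lower and 17.9% higher by the same rule. In complexes II and III every listed member fell, 4 of 4 and 8 of 8, against 7 of 15 in complex IV and 6 of 16 in complex V. The median change, on the log2 scale and relative to the median gene, was -0.50 in complex II, -0.48 in complex III, -0.25 in complex IV and -0.22 in complex V. Over all 43 members the median was -0.28, with a range from -0.78 to 0.16. Cox5a, a subunit facing the matrix, was the 1 member above the median gene, and its change of 0.16 did not pass (SE 0.26, adjusted p = 0.92). Its probe set was dim, at 137 to 293 over all arrays, so this value is uncertain. In 16 members the short-term and control signals did not overlap, all lower, against 19% of genes tested. Muscles tenotomized for 6 weeks or longer showed no member past the threshold against controls.

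**Figure D1:**
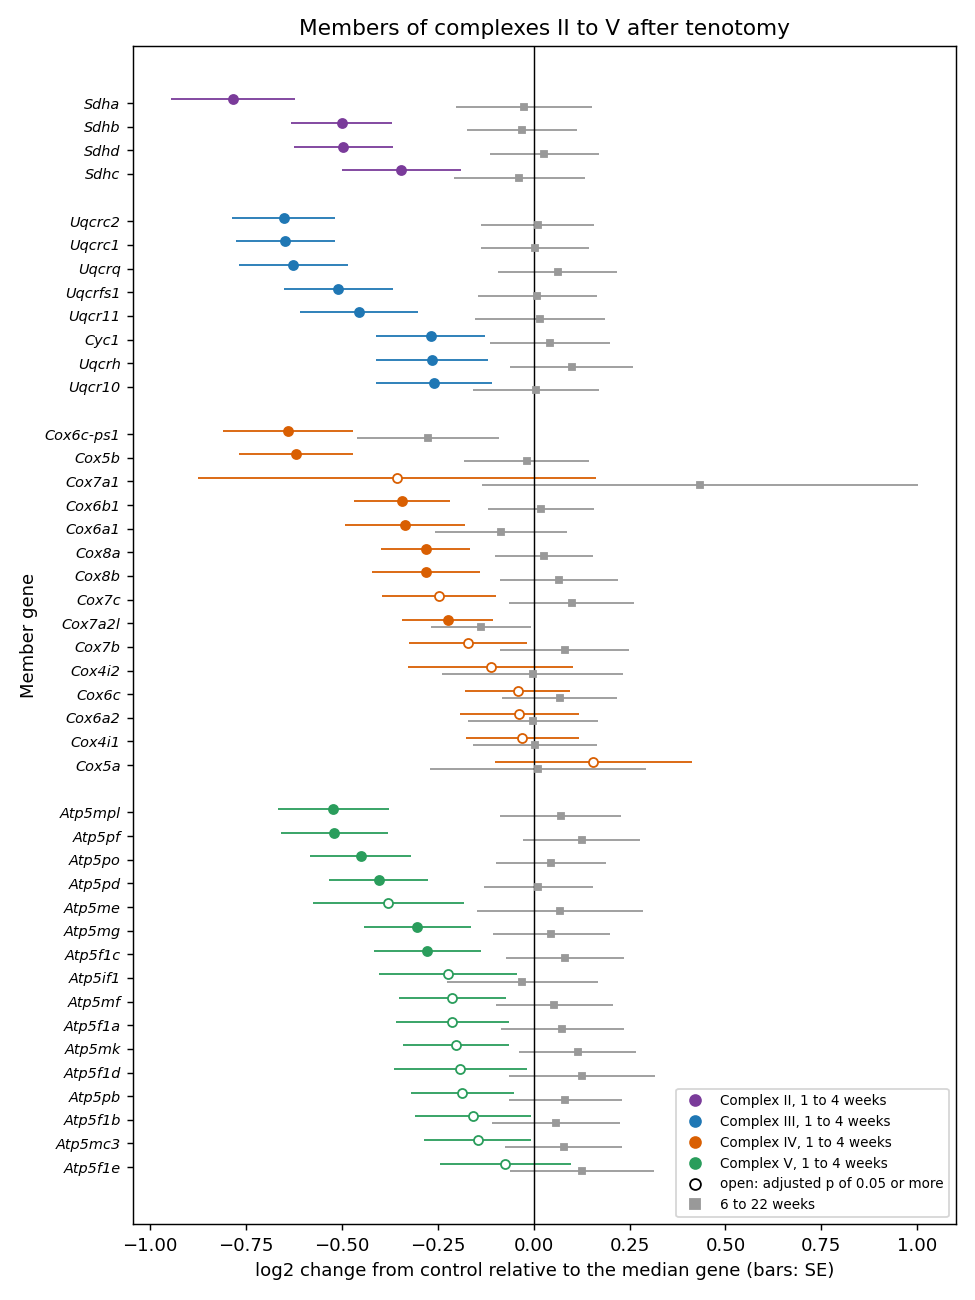
Change of each of the 43 tested members from control on the log2 scale, relative to the median gene, with bars for the SE: coloured circles for muscle tenotomized for 1 to 4 weeks (n = 6 against 4 controls) and grey squares for 6 to 22 weeks (n = 4 against 4). Filled circles passed the threshold. All circles of complexes II and III are filled, those of complexes IV and V are mixed, and no grey square passed the threshold.

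Each change is given relative to the median gene of its comparison, which itself lay at -0.12 for short-term against control, at -0.01 for long-term against control and at 0.12 for long-term against short-term. The p-values and calls refer to the change before that subtraction. The choice of scaling moved the counts. It moves the calls of all genes as well, so counts under another scaling cannot be set against the shares over all genes given above. With the arrays brought to a common median of all probe sets, 40 of 43 members were lower in short-term muscle, as they were on the deposited scale, and with a common 2% trimmed mean 15 were. Under all 6 scalings tried, 15 of 43 members were lower (background 16.8%): 3 of 4 in complex II, 5 of 8 in complex III, 3 of 15 in complex IV and 4 of 16 in complex V. Without control replicate 3 the count of 25 was 15, that of complex IV was 3 and that of complex III was 5. Without short-term replicate 1, 5 or 6, or control replicate 1 or 2, the count of complex III was also 5. For complex V the count was 12 when replicate 2 of the short-term muscles was left out and 10 when replicate 3 was.

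Proximal promoters are shown for members that fell, with and without a match, and for 2 that did not pass, Cox4i1 and Atp5me, because nuclear respiratory factor 1 (NRF-1), GA-binding protein (GABP, also called NRF-2) and the oestrogen-related receptors (ERR) are known regulators of respiratory chain genes. The 250 bases before the annotated start were taken from RefSeq on build GRCr8 for 38 of the 45 members and for 27456 genes in all. The letters GCGCA followed by any base and GCGC (NRF-1), CCGGAAGT (GABP) and TCAAGGTCA (ERR) were searched on both strands, and a match is a description of the sequence, not a site in use. The NRF-1 letters were present in 5 of the 38 (13.2%) against 4.17% of all promoters, the GABP letters in 5 (13.2%) against 3.29%, and the ERR letters in 1 (2.63%) against 0.368%. The last 100 bases before the start follow, 5′ to 3′ on the strand of the gene, with matches in capitals.
Sdha (complex II, chr1:30764453-30764552, + strand, 2 NRF-1 matches): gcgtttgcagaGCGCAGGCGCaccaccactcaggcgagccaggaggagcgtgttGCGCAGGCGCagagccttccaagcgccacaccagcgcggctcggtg
Uqcrc1 (complex III, chr8:118468123-118468222, + strand, NRF-1 match on the opposite strand): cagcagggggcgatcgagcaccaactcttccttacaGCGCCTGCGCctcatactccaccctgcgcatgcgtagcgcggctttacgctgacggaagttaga
Uqcrc2 (complex III, chr1:184599140-184599239, + strand, no match): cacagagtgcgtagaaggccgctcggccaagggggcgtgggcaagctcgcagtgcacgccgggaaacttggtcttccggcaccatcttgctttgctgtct
Uqcrq (complex III, chr10:38089979-38090078, - strand, GABP match): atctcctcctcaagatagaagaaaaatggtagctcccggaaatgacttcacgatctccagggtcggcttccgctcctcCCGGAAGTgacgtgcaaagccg
Cox5b (complex IV, chr9:46417737-46417836, + strand, GABP match): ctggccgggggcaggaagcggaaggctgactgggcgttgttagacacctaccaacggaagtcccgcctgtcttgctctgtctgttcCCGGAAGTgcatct
Cox4i1 (complex IV, chr19:65630283-65630382, + strand, no match): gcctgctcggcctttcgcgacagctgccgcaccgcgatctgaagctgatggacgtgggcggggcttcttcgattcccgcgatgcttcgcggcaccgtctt
Atp5mpl (complex V, chr6:136845641-136845740, - strand, NRF-1 match): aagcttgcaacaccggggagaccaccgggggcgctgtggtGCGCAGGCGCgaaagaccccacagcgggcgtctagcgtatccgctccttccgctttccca
Atp5me (complex V, chr14:1464760-1464859, + strand, NRF-1 match): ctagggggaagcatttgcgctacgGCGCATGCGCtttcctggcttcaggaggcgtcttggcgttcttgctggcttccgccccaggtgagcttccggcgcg
Atp5po (complex V, chr11:44657484-44657583, - strand, NRF-1 match): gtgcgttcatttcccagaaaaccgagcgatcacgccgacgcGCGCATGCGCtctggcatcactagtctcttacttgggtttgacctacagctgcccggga

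Sdha held 2 NRF-1 matches, which began 89 and 46 bases before the start. The other promoters with the NRF-1 letters were those of Uqcrc1, Atp5me, Atp5mpl and Atp5po, and those with the GABP letters were those of Uqcrh, Uqcrq, Cox5b, Cox8a and Atp5f1a. Of the 36 tested members with a promoter, 20 were lower in short-term muscle, of which 12 had no match to any of the 3 motifs, Uqcrc2, Sdhb, Sdhd and Atp5pf among them. Of the members with NRF-1 letters 4 of 5 were lower, without Atp5me, and of those with GABP letters 4 of 5, without Atp5f1a. Of the tested members with no match, 12 of 25 were lower. Whether a match goes with a fall was not tested. The ERR letters were found for Atp5mc3, whose change of -0.15 did not pass (adjusted p = 0.13).

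Complex II is wholly encoded in the nucleus, and its 4 genes are all on the list. Sdha, the flavoprotein that oxidises succinate, had signals of 5052, 5452, 5457 and 4761 in the 4 controls. In short-term muscle they ran from 2039 to 3785 with a median of 2630. The 4 long-term muscles had 4926, 4513, 4740 and 6241. All 6 short-term values thus lay below all controls and all long-term values. Sdha fell by 0.78 on the log2 scale (SE 0.16, adjusted p = 0.00046), more than any other member, and stood 0.75 higher in long-term than in short-term muscle (SE 0.16, adjusted p = 0.00064).

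Sdhb, the iron-sulfur subunit that takes electrons from Sdha, had control signals of 5411, 6273, 6041 and 5153 and short-term signals from 3104 to 4775, with a median of 3536. It fell by 0.50 (SE 0.13, adjusted p = 0.0015), and its groups did not overlap. Sdhc and Sdhd anchor the complex in the membrane. For Sdhd the controls had 5424, 5683, 5652 and 5167, the short-term muscles 2932 to 4445 with a median of 3411, and the change was -0.50 (SE 0.13, adjusted p = 0.0015), again without overlap. A second probe set of Sdhd gave -0.76 (adjusted p = 0.00022). Sdhc had the smallest change of the complex, -0.34 (SE 0.16, adjusted p = 0.023), and 1 short-term muscle, at 3117, lay within the control range of 2661 to 3474. The call of Sdhc was lost without short-term replicate 5, control replicate 2 or control replicate 3, where its adjusted p reached 0.083, and it held under 4 of the 6 scalings. In long-term muscle the 4 genes lay between -0.04 and 0.03 of controls, with Sdha the nearest to 0 at -0.02 (adjusted p = 1).

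In complex III the largest falls were those of the 2 core proteins and of a small subunit. Uqcrc1, core protein 1, had control signals of 5571, 5991, 5673 and 4781. Its short-term signals ran from 2722 to 3819 with a median of 3189, and its long-term signals were 5439, 4880, 5393 and 6280. The short-term group lay wholly below both others, with a change of -0.65 from control (SE 0.13, adjusted p = 0.00029).

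Uqcrc2, core protein 2, had 6575, 6328, 6682 and 6005 in controls, 3052 to 4659 with a median of 3712 in short-term muscle, and 6257, 5856, 6117 and 7551 in long-term muscle. It fell by 0.65 (SE 0.13, adjusted p = 0.00037), without overlap. A second probe set of Uqcrc2 changed by -1.43 (adjusted p = 0.0057), and in long-term muscle that probe set read -0.84 (adjusted p = 1) where the brighter one read 0.01 (adjusted p = 1), so the size of the change depends on the probe set. Uqcrq, a small membrane subunit near the ubiquinone pocket, had 5936, 5762, 5608 and 4189 in controls and 2694 to 3618 with a median of 3232 in short-term muscle. The change was -0.63 (SE 0.14, adjusted p = 0.00068), and the groups did not overlap although control replicate 4 was low.

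The 2 electron carriers of complex III encoded in the nucleus fell by unequal amounts. Uqcrfs1, the Rieske iron-sulfur protein, had control signals of 5876, 6150, 6266 and 5316 and short-term signals from 2946 to 5105, with a median of 3829, and fell by 0.51 (SE 0.14, adjusted p = 0.0024). Cyc1, cytochrome c1, had control signals of 4891, 5638, 5437 and 4411 and short-term signals from 3216 to 4927, so its groups overlapped. Its change was -0.27 (SE 0.14, adjusted p = 0.036), and this call held under 4 of 6 scalings and was lost on leaving out 6 of the 10 arrays in turn. Uqcrh, the hinge protein that docks cytochrome c, and Uqcr10, a small accessory subunit with the smallest change of the complex, both stood at -0.26, with adjusted p = 0.042 and 0.0499. Each of those calls was lost on leaving out 7 of the 10 arrays in turn, the adjusted p reaching 0.093 for Uqcrh and 0.13 for Uqcr10.

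**Figure D2:**
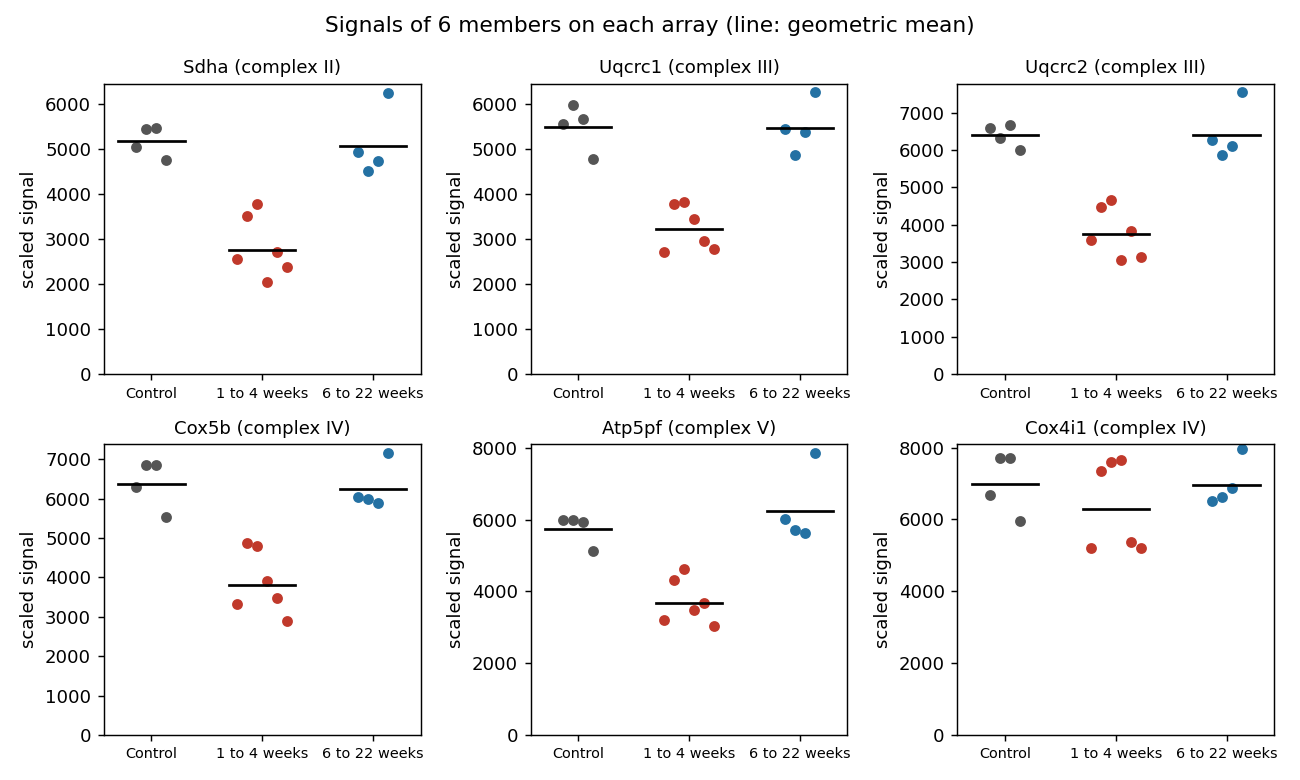
Scaled signal on each array of Sdha, Uqcrc1, Uqcrc2, Cox5b, Atp5pf and Cox4i1, each panel from 0, with the 4 controls, the 6 muscles tenotomized for 1 to 4 weeks and the 4 tenotomized for 6 to 22 weeks as points and the geometric mean of each group as a line. The short-term points lie below both other groups for the first 5 genes, whereas those of Cox4i1, from 5189 to 7649, overlap the controls, from 5955 to 7720.

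Complex IV was split. Cox5b, a zinc-binding subunit on the matrix side, had control signals of 6307, 6861, 6862 and 5524. Its short-term signals ran from 2895 to 4870 with a median of 3682, and its long-term signals were 6055, 5990, 5902 and 7168. The groups did not overlap, and the change was -0.62 (SE 0.15, adjusted p = 0.001), against -0.02 in long-term muscle (adjusted p = 1).

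Cox4i1, the widely expressed form of the largest nuclear-encoded subunit, had control signals of 6690, 7720, 7708 and 5955 and short-term signals from 5189 to 7649, with a median of 6270. Its change of -0.03 was the smallest in the complex (SE 0.15, adjusted p = 0.43), and the groups overlapped. Cox6c and Cox6a2, at -0.04 each (adjusted p = 0.35 and 0.42), also missed the threshold. Under 2 scalings, the common median of all probe sets and the deposited scale, these 3 genes passed as lower.

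Of the remaining members of complex IV that passed, Cox6b1, a subunit on the intermembrane side, changed by -0.34 (SE 0.13, adjusted p = 0.0075), from 5383, 5313, 5726 and 4911 in controls to between 3288 and 4458 in short-term muscle, without overlap. Cox6c-ps1, the pseudogene, read -0.64 (SE 0.17, adjusted p = 0.0021), but its signals were dim, 57.8 to 74.1 in controls and 32.7 to 48.9 in short-term muscle, and they are uncertain because a pseudogene can share sequence with its parent gene. Cox7a2l, which is not a subunit, changed by -0.22 (adjusted p = 0.027), a call that was lost under 2 scalings and without short-term replicate 6 or control replicate 2 or 3, and under quantile normalization its value was 0.03. Cox7a1, the heart and muscle form of subunit 7a, read -0.36 with an SE of 0.52 (adjusted p = 0.47), on signals of only 30.0 to 183 over the 14 arrays.

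Isoforms of 1 subunit could be set against each other in 3 pairs. Cox6a1, the widely expressed form, changed by -0.33 (adjusted p = 0.027) and Cox6a2, the heart and muscle form, by -0.04. The log2 ratio of Cox6a2 to Cox6a1 differed by 0.30 between short-term muscle and controls, with p = 0.13 in an exact 2-sided permutation test over 6 and 4 muscles, where the smallest possible p is 0.0048. Cox8a and Cox8b, the widely expressed and the heart and muscle form of subunit 8, both changed by -0.28 (adjusted p = 0.011 and 0.03). The calls of Cox6a1 and Cox8a were lost under 2 of the 6 scalings and without control replicate 3, that of Cox6a1 also without short-term replicate 1, and that of Cox8b under 1 and on leaving out 6 of the 10 arrays in turn. The Cox8b to Cox8a ratio differed by 0.00 (exact permutation p = 0.99). Cox4i2, a form responsive to oxygen in lung, was dim at 23.9 to 55.7 over all arrays and changed by -0.11 (adjusted p = 0.4), and its ratio to Cox4i1 differed by -0.08 (exact permutation p = 0.79). None of the 9 ratio tests passed, each with an adjusted p of 1.

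In complex V 6 of 16 members were lower: Atp5pf, Atp5po and Atp5pd of the peripheral stalk, the small membrane subunits Atp5mpl and Atp5mg, and Atp5f1c. The small membrane subunits Atp5me, Atp5mf and Atp5mk did not pass. Atp5pf, known as coupling factor 6 of the stalk, had control signals of 5990, 5992, 5927 and 5128. Its short-term signals ran from 3044 to 4631 with a median of 3584, and its long-term signals were 6016, 5715, 5630 and 7862. It fell by 0.52 (SE 0.14, adjusted p = 0.0018), without overlap.

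Atp5po, the stalk subunit that sits on top of the catalytic head, had 5771, 6229, 5996 and 4842 in controls and 3207 to 4455 with a median of 3946 in short-term muscle, a change of -0.45 (SE 0.13, adjusted p = 0.0027) without overlap. A second, dim probe set of Atp5po read 0.05 (adjusted p = 0.88), and the call was lost when the probe sets of a gene were averaged. Atp5pd, stalk subunit d, changed by -0.40 (SE 0.13, adjusted p = 0.0041), also without overlap. Atp5pb, the membrane-anchored stalk subunit b, read -0.19 and did not pass (adjusted p = 0.073). The stalk thus had 3 of 4 genes lower.

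Of the 6 genes of the catalytic head and the rotor, 1 passed. Atp5f1a and Atp5f1b, the alpha and beta subunits of the head, read -0.21 and -0.16 (adjusted p = 0.077 and 0.15), with Atp5f1b at 6293 to 7876 in controls and 4797 to 7438 in short-term muscle. Of the central stalk, Atp5f1c (gamma) passed at -0.28 (adjusted p = 0.03), a call lost under the trimmed mean and on leaving out 6 of the 10 arrays in turn, while Atp5f1d (delta) read -0.19 (adjusted p = 0.16). Atp5f1e (epsilon) had the smallest change of the complex, -0.07 (SE 0.17, adjusted p = 0.37). Atp5mc3, of the membrane ring, read -0.15. The inhibitor Atp5if1 read -0.22 (adjusted p = 0.13).

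Among the small membrane subunits, Atp5mpl had control signals of 3041, 2974, 3238 and 2683, short-term signals from 1582 to 2402 with a median of 1791, and a change of -0.52 (SE 0.14, adjusted p = 0.0022) without overlap. Atp5mg, subunit g, changed by -0.30 (adjusted p = 0.022), a call lost under the trimmed mean and without control replicate 2 or 3. Atp5me, Atp5mf and Atp5mk, subunits e, f and k, read -0.38, -0.21 and -0.20, with adjusted p = 0.0504, 0.062 and 0.07. These 3, and Cox7c of complex IV at -0.25 (adjusted p = 0.054), passed when muscles of the same rat were treated as a random block.

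Set against each other on the same array, where a shift of the whole array cancels, complexes II and III lay below complex V in all 6 short-term muscles. The mean log2 signal of complex II minus that of complex V, with the control mean at 0, was -0.52 to -0.13 in short-term muscle, with a median of -0.22, against -0.07, 0.01, -0.03 and 0.09 in the 4 controls. For complex III minus V the short-term values were -0.23 to -0.11, with a median of -0.20, against 0.01, -0.02, -0.03 and 0.04 in controls. The short-term and control values did not overlap in either case. The long-term muscles read -0.06 to -0.02 for complex III minus V, while for complex II minus V they ran from -0.25 to 0.02, with the 22-week muscle at -0.25 inside the short-term range. Complex IV minus V overlapped, at -0.05 to 0.20 in short-term muscle and -0.07 to 0.05 in controls. Under quantile normalization the difference of III and V in short-term muscle was -0.18 to -0.08. These means are descriptions of the members and carry no test.

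**Figure D3:**
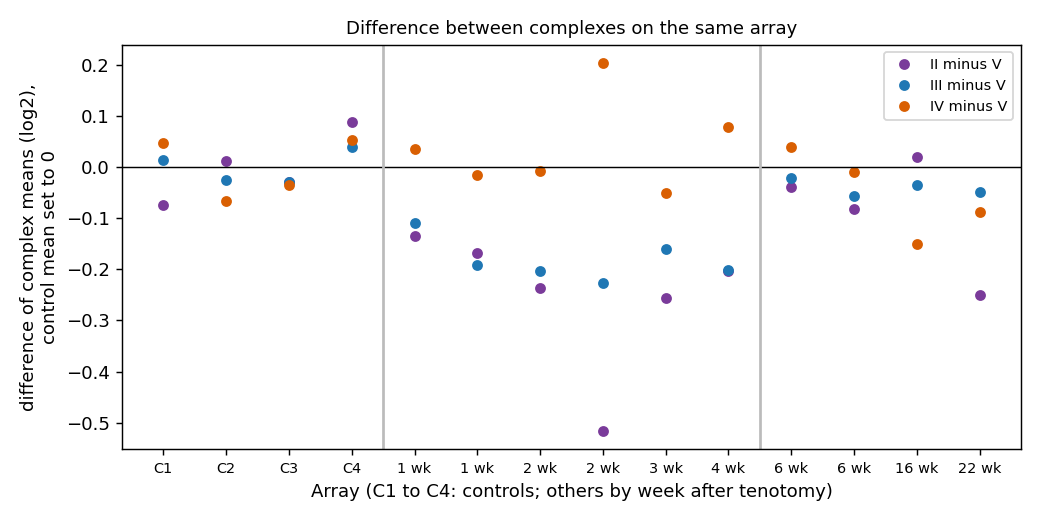
Difference between the mean log2 signals of complexes on the same array, with the mean of the controls at 0, for the 4 controls (C1 to C4) and the 10 tenotomized muscles by week. Complex III minus V lies at -0.23 to -0.11 in the 6 muscles of 1 to 4 weeks and at -0.06 to 0.04 in all others, while IV minus V shows no separation.

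The complex means also differed among short-term muscles. Relative to the control mean, complex II stood at -0.65 ± 0.27 (SD, n = 6), complex III at -0.58 ± 0.23, complex IV at -0.36 ± 0.25 and complex V at -0.40 ± 0.25, all n = 6. Over the 6 scalings the mean of complex II ran from -0.88 to -0.41, that of III from -0.80 to -0.38, that of IV from -0.58 to -0.19 and that of V from -0.62 to -0.23. The mildest values came from short-term replicates 2 (1 week) and 3 (2 weeks), with complex II at -0.27 and -0.35, and the others between -0.88 and -0.77. On the deposited scale the same 2 muscles read -0.71 and -0.81 for complex II, within the range of -1.41 to -0.61 of the 6. The scaling had removed offsets of -0.35 and -0.36 from these 2 arrays, which raised them, and one of -0.43 from short-term replicate 4 (2 weeks), which was lowest for complex II on both scales. No order by week is given for the complex means.

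**Figure D4:**
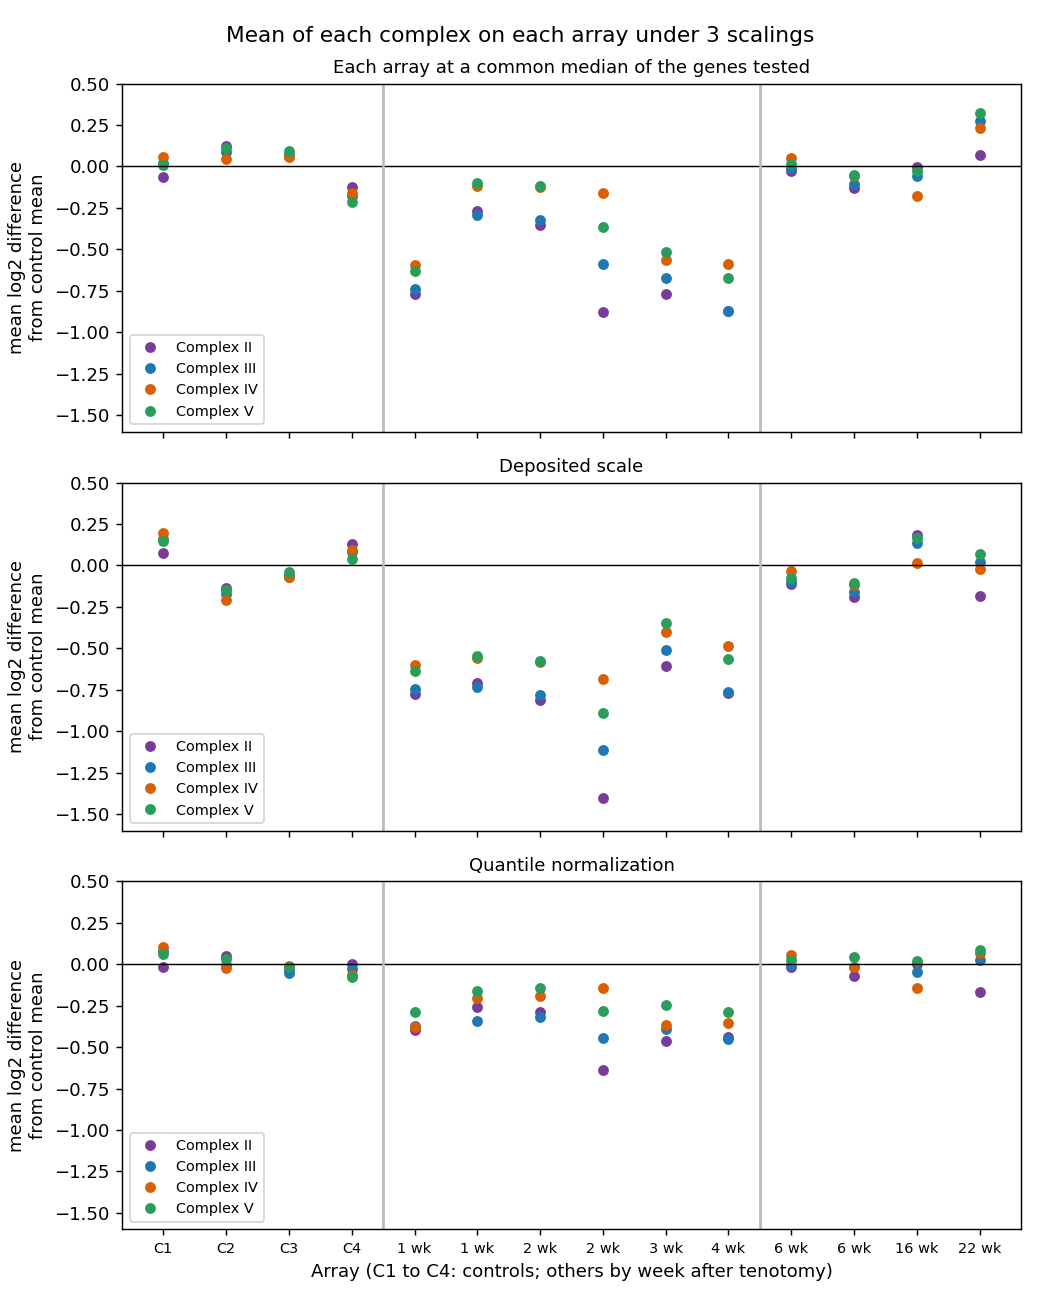
Mean log2 difference from the control mean of each complex on each of the 14 arrays under 3 scalings: the median of the genes tested, the deposited scale and quantile normalization. On each of the 6 arrays of 1 to 4 weeks all 4 complexes lie below 0 in every panel, and the spacing among those arrays changes from panel to panel. With the common 2% trimmed mean, which is not drawn, complex IV of short-term replicate 4 read 0.05.

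Against the controls, week 1 (2 muscles) had 10 of 43 members lower and 0 higher, where 14% of genes tested were lower and 9.47% higher, and the median member change was -0.30. Uqcrq (-0.75, adjusted p = 0.0066), Uqcrc1 (-0.69, adjusted p = 0.0091) and Sdha (-0.71, adjusted p = 0.03) were among the 10, and 8 of 43 members passed under all 6 scalings (background 9.18%). Without short-term replicate 1 the count was 0 and without replicate 2 it was 19. Each such fit leaves week 1 with a lone muscle, assumed to vary like the others, and without replicate 1 the genes called lower over all genes fell from 1544 to 374. Week 2 (2 muscles) had 11 of 43 lower and 0 higher, against 21.8% and 16.3% of genes tested, with a median of -0.13. Sdha (-0.81, adjusted p = 0.011), Uqcrc2 (-0.67, adjusted p = 0.0087) and Uqcrfs1 (-0.65, adjusted p = 0.01) were among the 11. Under all 6 scalings 5 of 43 members passed (background 14.5%). The week 2 counts thus lay near or under the shares over all genes tested. Without short-term replicate 4 the week 2 count was 0, again with a lone muscle, while the genes called lower over all genes went from 2413 to 1000. Leaving out control replicate 1, 2 or 3 lowered it to 4, and lowered the week 1 count to 3, 4 and 3. The muscles of week 3 and week 4, 1 each and without a test, had complex II means of -0.77 and -0.87 and complex V means of -0.51 and -0.67.

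In long-term muscle 0 of 43 members passed against controls in limma, with 0 at an unadjusted p under 0.05. Of all genes tested 0% passed, with 246 at an unadjusted p under 0.05. For 0 members did the groups lie apart without overlap, against 1.2% of genes tested lower and 0.941% higher. The median member change was 0.04, and the complexes had medians of -0.03 (II), 0.01 (III), 0.01 (IV) and 0.07 (V). The members nearest to 0 in the other complexes were Uqcrc1 at 0.00, Cox6a2 at -0.00 and Atp5pd at 0.01, and the SEs of the members ran from 0.13 for Cox8a to 0.57 for Cox7a1, so that small changes could not be detected. At week 6 alone 0 of 43 passed in limma and 1 had an unadjusted p under 0.05, against 0% and 469 of the genes tested. With arrays at a common median of the genes tested, the muscle of week 22 stood above the control mean in all complexes, at 0.07 for complex II and 0.32 for complex V. On the deposited scale this muscle read -0.18 for complex II, 0.02 for III, -0.02 for IV and 0.07 for V. Its complex II read -0.17 with quantile normalization and -0.04 with the trimmed mean. It read 0.23 with the common median of all probe sets and 0.05 with the common 75th percentile.

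Within rats 61 and 62, the right, tenotomized soleus could be set against the left one of the same animal at 6 weeks. In rat 61 the median member was 0.20 higher on the right and 2 of 43 were lower. In rat 62 the median was -0.07 and 36 of 43 were lower. On the deposited scale the medians were -0.15 and -0.27. The median of all genes tested was itself at -0.35 in rat 61 and -0.20 in rat 62. The members thus lay above the median gene in rat 61 and below it in rat 62 on both scales. With quantile normalization the member medians were 0.05 in rat 61 and -0.04 in rat 62. Those of all genes tested were 0.01 and -0.04, so in rat 62 the members lay at the median gene.

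Compared with short-term muscle, long-term muscle had 28 of 43 members higher and 0 lower, where 26.2% of genes tested were higher and 17.4% lower. This comparison shares its short-term arrays with the one against controls. Complex II had 4 of 4 higher, complex III 7 of 8, complex IV 6 of 15 and complex V 11 of 16, with medians of 0.49, 0.49, 0.24 and 0.31. The groups did not overlap for 20 members (background 17.8%), and 16 passed under all 6 scalings (background 15.5%). Without long-term replicate 4 (22 weeks) 16 members were higher, of which complex IV held 3 and complex V 4. Without short-term replicate 1 or 6 complex V held 7.

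Beside Sdha, the largest differences between long-term and short-term muscle among members that passed were those of Sdhd (0.52, adjusted p = 0.0012) and Sdhb (0.46, adjusted p = 0.0023) in complex II. In complex III they were those of Uqcrq (0.68, adjusted p = 0.00045), Uqcrc2 (0.65, adjusted p = 0.0004) and Uqcrc1 (0.64, adjusted p = 0.00033). Cox5b (0.59, adjusted p = 0.0014), Cox6c-ps1 (0.36, adjusted p = 0.031) and Cox6b1 (0.35, adjusted p = 0.0064) led in complex IV. In complex V the largest were Atp5pf (0.64, adjusted p = 0.00059), Atp5mpl (0.58, adjusted p = 0.0012) and Atp5po (0.49, adjusted p = 0.0017). The second probe sets of Uqcrc2 (0.59, adjusted p = 0.16) and Atp5po (0.06, adjusted p = 0.66) did not pass in this comparison. That of Sdhd did (0.74, adjusted p = 0.0003). The smallest differences were those of Sdhc (0.30, adjusted p = 0.037), Uqcr10 (0.26, adjusted p = 0.051), Cox4i1 (0.02, adjusted p = 0.44) and Atp5f1e (0.19, adjusted p = 0.15). Uqcr10 and, among others, Cox7b (0.24) and Atp5mc3 (0.22) passed with rats as a random block.

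Over the 10 tenotomized muscles, the slope on log2 of the week passed in 3 of 43 members, all upward, against 8.48% of genes tested upward and 7.15% downward. The count of 3 of 43 is no larger a share than that over all genes tested. They were Uqcrq at 0.22 per doubling of time (adjusted p = 0.024), Uqcrc1 at 0.19 (adjusted p = 0.038) and Atp5pf at 0.19 (adjusted p = 0.044). Under all 6 scalings 3 of 43 members passed (background 4.35%). The slope spans the same short-term and long-term muscles, and the count went to 0 without short-term replicate 1 or long-term replicate 3 or 4, to 1 without short-term replicate 3 or 4 or long-term replicate 1 or 2, and to 13 and 11 without short-term replicates 2 and 6. Over all genes the 938 upward and 791 downward slopes went to 110 and 28 without long-term replicate 4.

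Other genes of oxidative phosphorylation had larger median changes, a difference that was not tested. Complex I passes electrons from NADH to ubiquinone. Of 36 genes with the symbol of a nuclear complex I subunit, 30 were lower in short-term muscle and 0 higher, with a median of -0.60. In long-term muscle 33 were higher than in short-term muscle. This list follows the symbols and so holds Ndufa4 and Ndufa4l2, which are not complex I subunits. They read -0.21 and 0.51 in short-term muscle against controls, where neither passed. Of 32 assembly factors of complexes II to V tested, 26 were lower and 0 higher, with a median of -0.63, and 24 were higher in long-term than in short-term muscle, while 0 of either list passed between long-term muscle and controls (0 at an unadjusted p under 0.05). The largest falls of assembly factors were those of Cox11 (-1.49, adjusted p = 0.00048), which delivers copper to complex IV, Sdhaf3 (-1.23, adjusted p = 0.00024), which helps to mature Sdhb, and Fmc1 (-1.19, adjusted p = 9.1e-06), an assembly factor of complex V. Cox11 went from a geometric mean signal of 102 in controls to 33.4 in short-term and 83.4 in long-term muscle. The largest differences of long-term from short-term muscle were those of Cox11 (1.19), Cox10 (1.13), which acts in the synthesis of haem a, and Atpaf1 (1.13), which assembles the head of complex V, with adjusted p = 0.0021, 3.6e-05 and 3.9e-05.

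The members are among the brightest features of these arrays, and the change in short-term muscle varied with brightness in other genes as well. Of the members, 30 of 43 had a mean log2 signal above 12, against 1.75% of genes tested. Under 8 the median change was -0.23 for 4 members, of which 1 was lower, and 0.18 for the other genes, of which 14.9% were lower. Between 12 and 12.5 the median change was -0.45 for 17 members, of which 15 were lower, and -0.12 for 105 other genes, of which 26.7% were lower. Above 12.5 it was -0.17 for 13 members, of which 3 were lower, and 0.07 for 59 other genes, of which 6.78% were lower. From 10 to 11 the members had a median of -0.28, with 2 of 4 lower against 50.9% of other genes, and from 11 to 12 a median of -0.34, with 4 of 5 lower against 52.5%. Over the 43 members, which share the same arrays and scaling, Spearman's rho between change and mean level was 0.38. The part of brightness in the differences between complexes was not tested.

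**Figure D5:**
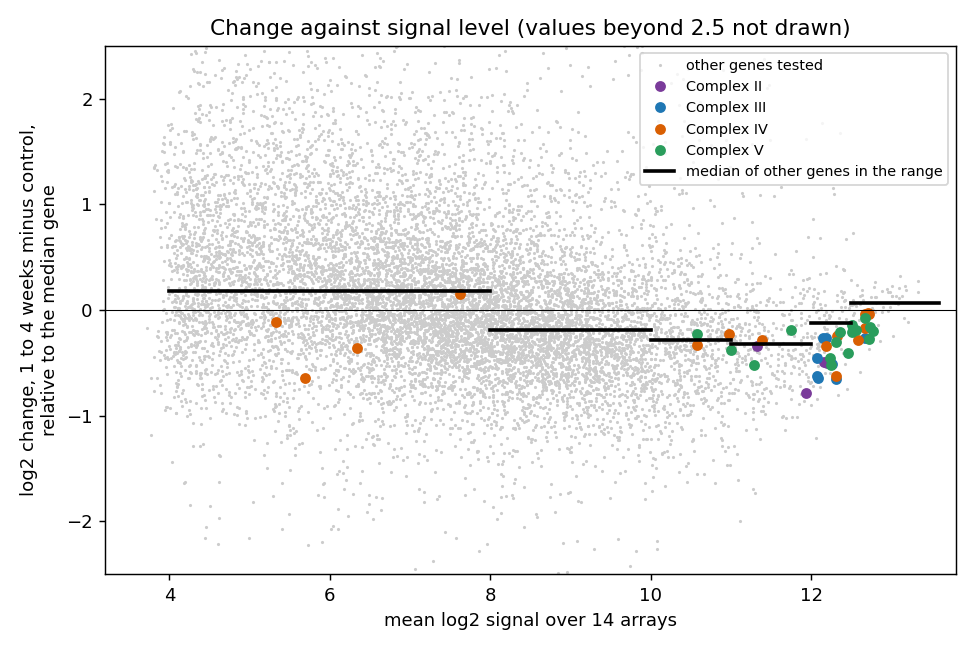
Change in short-term muscle relative to the median gene (log2) against the mean log2 signal over the 14 arrays, with a grey point for each other gene tested, a coloured point for each member and a bar for the median of other genes in each range of level. Most members lie at a level above 12, where those between 12 and 12.5 have a median of -0.45 and those above 12.5 a median of -0.17.

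Markers of macrophages and fibroblasts rose in the same short-term muscles, where 17.9% of all genes tested were higher and 26.5% lower. Of 10 macrophage genes 9 were higher, with summed signals of 4396 to 7780 against 1417 to 2810 in controls and 1269 to 2872 in long-term muscle. Of 8 fibroblast genes 7 were higher, at 30545 to 52657 against 9660 to 13017 and 4100 to 16151. One of 6 adipocyte genes and 1 of 5 genes of smooth muscle and pericytes were higher, and 1 of 4 endothelial genes was lower. The poly-A spike-ins read 170 to 482 in short-term muscle, 93.7 to 150 in controls and 114 to 189 in long-term muscle, and the ratio of 3' to 5' signal of Gapdh was 1.16 to 1.61, 1.38 to 2.78 and 1.38 to 2.78. That ratio of beta-actin was 1.97 to 3.87, 1.47 to 2.37 and 1.39 to 3.74. The part of these in the members' changes was not tested.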

How the data were processed

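RNA of whole soleus was measured on 14 Affymetrix arrays. The deposited values are probe set intensities on a linear scale, computed by the authors with MAS5, per the submitters' processing notes; the scaling target, the version and the detection calls are not given in the sources used here. The members and gene lists were chosen with earlier results of these data known. The 31099 intensities per array, with array medians of 29.8 to 49.3, were taken to log2, a step not in the deposited values. Of the probe sets, 20826 carried 1 gene symbol, 436 several and 9780 none, and 57 manufacturer's controls were left out. The brightest probe set stood for each of 14217 genes. Arrays were brought to a common median of all probe sets and floored at the pooled 25th percentile. A gene was kept if 4 or more arrays exceeded the pooled 40th percentile, which is a signal of 22.0, and 11056 were. Each array was then brought to a common median of these genes and floored again (a signal of 9.71). Correlations between arrays lay between 0.85 and 0.94, and no 2 arrays were identical. The number of arrays limits the precision.

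limma 3.58.1 in R 4.3.3 fitted a mean per group over all 14 arrays, a second fit used a mean per time point, and another a slope on log2 week over the 10 tenotomized arrays, all with an intensity trend. Benjamini-Hochberg adjustment ran over the 11056 genes, and calls were made at 0.05. They treat muscles as independent, and nothing more than the spread between these muscles enters them. Ratios of isoforms were tested by exact permutation over muscles. By rule, the text names for each complex and group comparison the 3 largest called changes, the smallest change, any call against the median and the isoform pairs, and the 3 largest called changes of assembly factors; other members were named after their values were seen. The pairing of left and right muscles comes from the rat numbers in the labels: the correlation between muscles of 1 rat, estimated over all genes, was 0.49 in the group fit and 0.33 in the time point fit. Alternatives were 5 other scalings, no floor, other filters, the mean of all probe sets, no trend, a rat block and leaving out each array. The scripts were tested on simulated data. Promoters came from RefSeq (GRCr8).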

Additional observations from a re-analysis of the deposited data

Results flagged for a closer look

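Of 129 sets of values (43 members in 3 groups), 9 held a muscle far from the others of its group, or 6.98%, where chance gives about 1 in 20. Of these, 5 came from long-term replicate 4, the muscle of 22 weeks, which was the highest of its group: Atp5f1b at 8873 (others 7103 to 7331), Atp5mg at 6973 (5491 to 5588), Atp5mpl at 4009 (2790 to 2931), Cox5b at 7168 (5902 to 6055) and Uqcrq at 7089 (5064 to 5132). Another 3 came from control replicate 4, the left muscle of rat 61, which was the lowest: Atp5pf at 5128 (others 5927 to 5992), Uqcrq at 4189 (5608 to 5936) and the pseudogene Cox6c-ps1 at 57.8 (71.4 to 74.1). Cox7a1 was low on long-term replicate 3, the muscle of 16 weeks, at 40.1 (149 to 183). All of these are scaled signals. The scaling had removed an offset of -0.16 from long-term replicate 4, which raised it, and of 0.35 from control replicate 4, which lowered it. Whether the flags stand under other scalings was not tested.

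The change from control differed between short-term and long-term muscle, by limma's test of the 2 groups against each other, for 4 members of complex II, 7 of complex III, 6 of complex IV and 11 of complex V. These are the same 28 calls as given above for long-term against short-term muscle. Of all genes tested, 26.2% were higher and 17.4% lower in that comparison.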

How the results depend on the processing

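Counts of members depended on the scaling. A change of setting can move the calls of all genes too, so these counts cannot be set against the shares of the reported fit. The 25 lower in short-term muscle were 40 with a common median of all probe sets, 40 on the deposited scale and 15 with a common 2% trimmed mean, and the 28 higher in long-term than in short-term muscle were 16 with the trimmed mean. The 10 lower at week 1 were 34 with the common median of all probe sets, 33 on the deposited scale, 18 with quantile normalization and 6 with no filter. The 11 lower at week 2 were 32, 41 and 21 under the same 3 scalings and 5 with the trimmed mean. The 3 upward slopes were 35, 30 and 7 under those 3 scalings, 6 with a common 75th percentile, 1 with no filter, 5 with a 60th percentile filter and 1 with no intensity trend. Leaving out 1 array gave 15 to 32 members lower in short-term muscle, 16 to 34 higher in long-term than in short-term muscle, 0 to 19 at week 1, 0 to 13 at week 2 and 0 to 13 slopes. For complex II the ranges of the first 2 were 3 to 4 and 3 to 4, for III 5 to 8 and 5 to 8, for IV 3 to 8 and 3 to 7, and for V 4 to 12 and 4 to 15. Within rat 61, the medians of complexes II, III, IV and V were -0.24, -0.17, -0.13 and -0.12 on the deposited scale, and those of II, III and IV were -0.049, 0.036 and 0.063 with quantile normalization. Within rat 62 they were -0.24, -0.31, -0.25 and -0.22 with the common median of all probe sets and -0.27, -0.34, -0.28 and -0.25 on the deposited scale. The median of all genes tested was itself -0.35 in rat 61 and -0.20 in rat 62 on the deposited scale, 0.014 in rat 61 with quantile normalization and -0.17 in rat 62 with the common median of all probe sets. Relative to the median gene, Cox7a2l in short-term muscle was 0.030 with quantile normalization (adjusted p = 0.69), and the cause was not tested. At week 2 on the deposited scale, 7 members passed as lower before the median gene was subtracted but lay above it, as they did in the reported fit: Atp5f1b was 0.066, Atp5f1e 0.22, Atp5mc3 0.047, Cox4i1 0.21, Cox6a2 0.19, Cox6c 0.15 and Cox7b 0.0079. With rats as a random replicate block the counts were 29, 33, 9 and 11, with 0 for long-term muscle and week 6, and 10 of 258 member calls changed. No member passed in long-term muscle or at week 6 against controls under any alternative run. The complex means moved by less than 1 SD between muscles under the other scalings, the 60th percentile filter and, chosen after seeing the data, without Cox6c-ps1, Cox7a2l, Atp5if1 and dim members (37 members left).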
